A study of Rattus norvegicus with 70 samples.

Results

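The potassium channel genes described here were all genes whose symbol starts with Kcn, which gave 90 of the 19441 genes measured in each of 6 rat tissues. Of these, 38 code for voltage-gated pore subunits, 15 for inward rectifiers, 13 for two-pore-domain channels, 8 for calcium- or sodium-activated channels and 16 for auxiliary subunits or regulators. Messenger RNA had been sequenced from male Wistar-Kyoto (WKY) rats, an inbred strain, that breathed 0.8 ppm ozone or air for 4 h. Ozone is a reactive gas that injures the airway lining. Libraries numbered 6 from ozone-exposed and 5 from air-exposed rats in adrenal gland, 6 and 6 in hypothalamus, lung and liver, 5 and 5 in adipose tissue, with 5 and 6 for muscle. A member was tested in a tissue if its mean deposited value there was at least 10, which held for 46 adrenal, 76 hypothalamic, 51 lung, 14 liver, 41 adipose and 35 muscle members. In all, 85 members were tested in at least 1 tissue and 8 in all 6, while Kcne5, Kcnmb1, Kcnmb3, Kcnu1 and Kcnv2 were tested in none.

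Potassium channels let potassium ions leave or enter a cell and so set its resting voltage and end its action potentials. Voltage-gated channels open on depolarization, inward rectifiers and two-pore-domain channels carry resting or "leak" current, calcium-activated channels link calcium entry to repolarization, and auxiliary subunits change how a pore opens or reaches the membrane. In the adrenal cortex the resting voltage of glomerulosa cells, set by leak and inward rectifier channels, governs calcium entry and aldosterone release. In the hypothalamus potassium channels shape neuronal firing, including that of glucose-sensing neurons.

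Values are the authors' normalised read counts, compared between ozone and air within a tissue only, since each tissue was normalised as a table of its own and RNA was extracted with kits that differed between tissues. They are not scaled to gene length, so levels of different genes cannot be ranked against each other. A gene is said to have risen or fallen where limma's adjusted p-value over all genes tested in the tissue was under 0.05. Fold changes are log2 differences of value + 1, ozone minus air, ± standard error (low genes change by more than this scale shows). Means are given ± SD. Recovered reads per library ran from 8854272 to 18848151. Whether every library is a separate rat is not stated, so p-values reflect the spread among libraries, which may be technical. In bulk tissue, fewer cells of a type and less RNA per cell cannot be told apart.

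In the adrenal gland 7 potassium channel genes rose and 4 fell after ozone. Kcnj1, Kcne2, Kcnj5, Kcnh1, Kcnj8, Kcnj14 and Kcnc4 were higher, and Kcnj2, Kcnh2, Kcng2 and Kcnc2 were lower. That is 23.9% of the 46 members tested, against 18.6% of all 14026 genes tested, of which 9.23% rose and 9.38% fell. The members' median log2 fold change was 0.20, and that of all genes -0.00. For 8 members the ozone and air libraries did not overlap, as for 12.9% of all genes. By group, 4 of 8 inward rectifiers rose and 1 fell, 2 of 18 voltage-gated subunits rose and 3 fell, and 1 of 8 auxiliary subunits rose. In limma 0 of 6 two-pore-domain and 0 of 6 calcium- or sodium-activated channel genes passed. At an unadjusted p under 0.05, 1 and 2 of them were lower, as were 16.2% of all genes. The edgeR and DESeq2 tests of the recovered reads each called the two-pore-domain one, Kcnk5, as fallen, and DESeq2 also called the sodium-activated Kcnt1 (both named after their values were seen). Those tests called 10.0% and 12.5% of all genes as fallen. When libraries were scaled to total reads, which moved the median of all adrenal genes to -0.13, 5 members rose and 6 fell, against 6.05% and 14.4% of all genes.

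**Figure D1:**
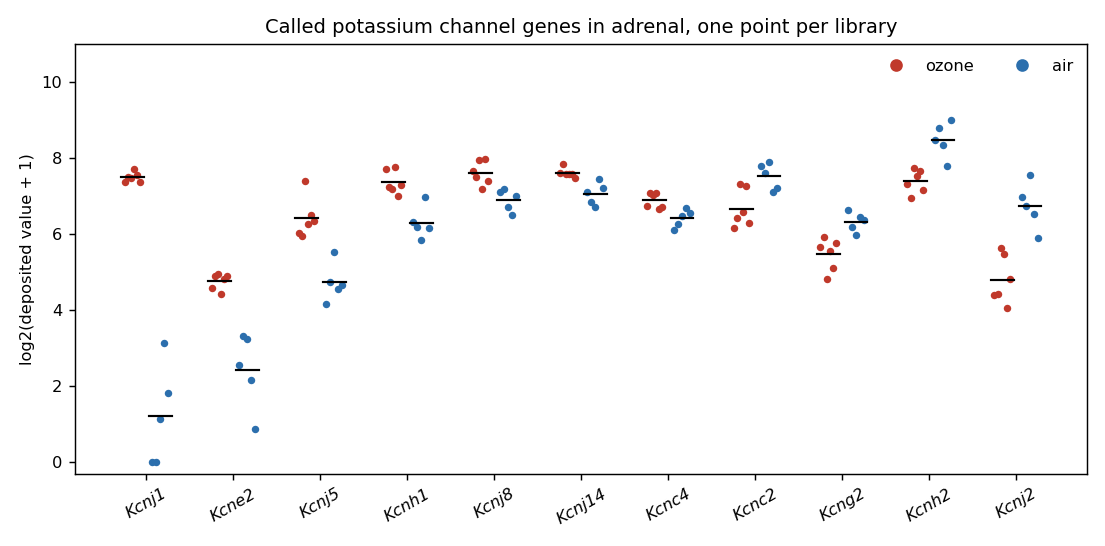
Deposited values of the 11 potassium channel genes that rose or fell in adrenal, as log2(value + 1), 1 point per library (6 ozone, 5 air) with the group mean as a bar. Kcnj1 lies near 0 in air and between 165 and 210 in ozone before the log, and 8 of the 11 genes show no overlap between ozone and air libraries.

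Kcnj1 codes for ROMK, the inward rectifier through which kidney tubules secrete potassium. Its values were 165, 181, 177, 210, 189 and 165 in the 6 ozone libraries, against 0, 0, 1.2, 7.76 and 2.52 in the 5 air libraries. Every ozone library lay far above every air library, and the air libraries held 13 Kcnj1 reads in all against 1066 in the ozone libraries. The log2 fold change was 6.29 ± 0.48 (limma adjusted p = 5.53e-06). Kcnj1 and Kcne2 reached the minimum mean only through the ozone libraries. Markers of kidney, an organ next to the adrenal, are given beside Kcnj1. Of 5 listed, only 3 were measured here: Slc12a1 and Slc22a6 of tubules and Nphs1 of glomeruli. None reached the minimum, and their sums were 2.04 to 8.16 in ozone and 6.72 to 10.5 in air libraries. The part of kidney tissue in the Kcnj1 result was not tested. In the other 5 tissues Kcnj1 was too low to be tested, its highest group mean there being 5.06 ± 3.06 in hypothalamus after ozone (n = 6).

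Kcnj5 codes for GIRK4, a G protein-gated inward rectifier found in heart atria and in the adrenal glomerulosa, where human mutations cause aldosterone-producing adenomas. Adrenal values were 64.7, 60.9, 169, 75.5, 88.9 and 80.4 in ozone libraries, against 16.9, 25.9, 45.4, 22.4 and 24.4 in air libraries. The groups did not overlap, with ozone library 16 the highest of the ozone group and air library 8 the highest of the air group. Kcnj5 rose by 1.68 ± 0.29 on the log2 scale (limma adjusted p = 0.00171). Kcnj5 and Kcnj1 are neighbouring protein-coding genes on rat chromosome 8, transcribed in opposite directions. Their RefSeq promoter windows, 250 bases before to 50 after the annotated start in the GRCr8 assembly, are shown because these neighbours had the 2 highest fold changes among the adrenal inward rectifiers. The Kcnj1 window (chr8:39037742-39038041, plus strand) holds a TATAAA at -41, in capitals, and lies within the annotated gene rather than at its outermost start. The Kcnj5 window (chr8:39011047-39011346, minus strand) held none of the 6 motifs searched.
Kcnj1: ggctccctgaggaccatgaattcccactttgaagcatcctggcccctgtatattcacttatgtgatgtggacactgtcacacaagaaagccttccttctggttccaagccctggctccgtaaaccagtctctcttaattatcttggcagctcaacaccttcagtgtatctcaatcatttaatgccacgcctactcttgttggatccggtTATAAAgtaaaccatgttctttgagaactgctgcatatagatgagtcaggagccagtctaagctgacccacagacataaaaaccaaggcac
Kcnj5: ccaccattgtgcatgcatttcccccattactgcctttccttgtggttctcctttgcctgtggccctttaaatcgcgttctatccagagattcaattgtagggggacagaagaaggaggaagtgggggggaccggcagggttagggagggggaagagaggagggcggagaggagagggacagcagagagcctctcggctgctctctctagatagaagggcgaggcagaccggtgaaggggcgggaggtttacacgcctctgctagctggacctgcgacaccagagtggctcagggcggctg
TATAAA occurred in 2 (3.39%) of the 59 member promoters that RefSeq's table held and in 14.3% of all 27457 promoters, both strands searched. The median GC content was 61.7% in member promoters and 52.3% in all, and its part in the share with TATAAA was not tested.

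Kcnj2, coding for the classical inward rectifier Kir2.1 that holds the resting voltage, was the member with the largest fall among those called in adrenal. It measured 20, 20.3, 49, 43.9, 15.6 and 27.1 after ozone, against 125, 106, 187, 90.5 and 58.8 in air. All ozone libraries were below all air libraries, and the log2 fold change was -1.94 ± 0.34 (limma adjusted p = 0.00204). The remaining inward rectifiers that passed the test were higher after ozone. Kcnj8, the Kir6.1 pore of ATP-sensitive channels in vascular smooth muscle and pericytes, had 200, 179, 248, 144, 252 and 167 in ozone libraries and 137, 145, 104, 89.6 and 128 in air libraries. The lowest ozone library, 17, just overlapped the highest air library, 6 (log2 fold change 0.70 ± 0.18, limma adjusted p = 0.0183). Kcnj14, the Kir2.4 pore, had 195, 229, 192, 192, 191 and 178 after ozone and 136, 115, 104, 172 and 148 in air, without overlap. Its log2 fold change was 0.55 ± 0.15 (limma adjusted p = 0.0191). That call was lost without air library 6 (adjusted p = 0.0534) and under total-read scaling (0.42, adjusted p = 0.101).

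Beside Kcnj8, smooth muscle markers summed to 4273 to 5534 in ozone and 3265 to 4505 in air adrenals, and endothelial markers to 4704 to 6211 and 3724 to 4412, with 1 of 5 and 1 of 3 tested markers risen and none fallen. Their part in the result was not tested.

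Among voltage-gated subunits, the ether-à-go-go family went both ways. Kcnh1, the EAG1 channel best known from brain, had 210, 149, 144, 216, 127 and 157 in ozone libraries and 78.2, 71.9, 56.2, 125 and 70.6 in air libraries. The lowest ozone value was just above the highest air value (log2 fold change 1.07 ± 0.21, limma adjusted p = 0.00398). Kcnh2, the ERG1 channel that repolarizes the heart, had 160, 123, 211, 185, 201 and 142 after ozone and 355, 440, 323, 221 and 514 in air. All ozone libraries were below all air libraries (-1.08 ± 0.22, adjusted p = 0.00409 in limma). Kcng2, a silent subunit that modifies other voltage-gated channels, had 49.5, 60, 27.2, 45.9, 33.2 and 53.3 after ozone and 98.4, 71.9, 62.2, 86.2 and 82.4 in air, again without overlap. It fell by 0.86 on the log2 scale (limma adjusted p = 0.0161).

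The Kv3 genes Kcnc2 and Kcnc4, which code for channels of fast-firing cells, had weaker calls in opposite directions. Kcnc2 had 70.4, 85.1, 158, 94.9, 151 and 76.6 in ozone libraries and 221, 192, 237, 138 and 147 in air libraries, with ozone libraries 16 and 19 inside the air range. Its log2 fold change was -0.85 ± 0.24 (limma adjusted p = 0.0282), and the call was lost when any of air libraries 2 or 6 or ozone libraries 14, 15, 17 or 20 was left out, with adjusted p up to 0.0741. Kcnc4 averaged 118 ± 16.1 after ozone (n = 6) and 85.5 ± 13.2 in air (n = 5), a log2 fold change of 0.46 ± 0.15 at the edge of the threshold (limma adjusted p = 0.0498). That call was lost without any of air libraries 2, 6 and 11 or ozone libraries 14, 15, 16, 17 and 20, with adjusted p from 0.0391 to 0.129 over all 11 fits. It was also lost with a minimum mean of 1 (0.0629), under TMM scaling (0.0529) or total-read scaling (0.171), and in edgeR (0.0535).

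Kcne2, an auxiliary subunit that modifies voltage-gated pores in heart, stomach and thyroid, had 22.8, 29, 29.9, 20.4, 27.3 and 29 after ozone, against 4.84, 8.99, 8.37, 3.45 and 0.84 in air. The groups were well apart, at 155 reads over the ozone libraries and 26 over the air libraries. The log2 fold change was 2.34 ± 0.40 (limma adjusted p = 0.00157).

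Of the members best known from the adrenal, Kcnj5 was the only one called in the limma fit of all 11 libraries. Kcnk3 and Kcnk9, the TASK-1 and TASK-3 leak channels of rodent glomerulosa cells, averaged 13949 ± 2396 and 1030 ± 235 after ozone (n = 6) and 13336 ± 8635 and 825 ± 197 in air (n = 5). Their log2 fold changes were 0.23 ± 0.28 (adjusted p = 0.634) and 0.32 ± 0.19 (adjusted p = 0.273) in limma. Kcnk2, Kcnma1 and Kcnq1, the TREK-1, BK and Kv7.1 pores, had -0.10 ± 0.29, -0.00 ± 0.32 and 0.21 ± 0.17, none called. Kcnk3 was spread by air library 8 at 28628, against 8136 to 11458 in the other air libraries, and ozone library 16 at 18609, against 12103 to 13935. Those 2 libraries also had the highest Dab2, a glomerulosa marker (1039 in ozone 16, 1209 in air 8), and the lowest Star and Cyp11b2 of their group (Star 63024 in ozone 16 and 40965 in air 8, Cyp11b2 45858 in ozone 16 and 40392 in air 8). The other ozone libraries had 61816 to 72127 of the glomerulosa gene Cyp11b2 and the other air libraries 57567 to 73008, so the glomerulosa markers did not move together. Ozone 16 and air 8 also had the highest value of the myelin gene Mbp in their group (381 and 865). Of the medulla gene Th they had the lowest (4338 and 1671). Without both libraries Kcnk3 was 0.46 (limma adjusted p = 0.00718), and 10 members rose and 5 fell, with 30.1% of all genes called. Leaving out air library 8 alone, 11 members rose, as did 12.6% of all genes, and Kcnk3 was 0.55 (adjusted p = 0.0135). With array weights, which give deviating libraries less weight, Kcnk3 was 0.44 and passed as well (limma adjusted p = 0.0178).

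Some cell type markers were called in adrenal beside these genes, where 18.6% of all genes were called. Fasciculata markers, 5 of 7 measured here, summed to 273012 to 356056 in ozone and 170581 to 268043 in air libraries. Of the 4 tested, 1 rose, Akr1b7. Medulla markers summed to 20601 to 35847 and 11293 to 25787, with 1 of 7 risen, Th, by 0.99 ± 0.20. Glomerulosa markers summed to 48079 to 73326 and 42478 to 74572, with 1 of 5 risen and 1 fallen, and the aldosterone synthase gene Cyp11b2 had 0.10 ± 0.18. Adipocyte markers summed to 2893 to 9043 and 1814 to 4353, with 2 of 5 risen. No marker of these 4 lists was at 0 throughout, and their part in the result was not tested.

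In the hypothalamus 1 of 76 members tested rose and none fell, which is 1.32% against 1.41% of all 15217 genes (0.789% risen, 0.624% fallen). Under total-read scaling 1 rose and 1 fell, against 0.591% and 0.723% of all genes. At an unadjusted p under 0.05, 5 members were higher and 3 lower, against 7.87% and 6.89% of all genes. The edgeR quasi-likelihood test of the recovered reads called 1 higher and 0 lower, with 1.33% of all genes called, and DESeq2 2 and 1, with 3.62% called. For 2 members the ozone and air libraries did not overlap, against 2.15% of all genes. The members' median log2 fold change was -0.04 and that of all genes -0.00.

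The gene that rose was Kcnip3, which codes for calsenilin or DREAM, a calcium sensor that binds Kv4 pores and in the nucleus represses transcription. Its values were 477, 563, 463, 520, 604 and 489 in the 6 ozone libraries, against 301, 245, 296, 288, 331 and 240 in the 6 air libraries. All ozone libraries were above all air libraries. The log2 fold change was 0.87 ± 0.11 (limma adjusted p = 0.000764), and it stayed between 0.83 and 0.92 with each library left out in turn. Kcna4, the Kv1.4 channel of fast-inactivating current, was the other gene without overlap. It had 116, 94.1, 121, 109, 62.8 and 125 after ozone and 136, 163, 167, 196, 159 and 210 in air, but its log2 fold change of -0.73 ± 0.17 did not pass (limma adjusted p = 0.0573).

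The members known for hypothalamic firing did not pass the test, and several varied widely between libraries. Kcnj11, the Kir6.2 pore of glucose-sensing neurons, averaged 116 ± 18 after ozone and 120 ± 27.7 in air (n = 6 each), with a log2 fold change of -0.04 ± 0.16. The G protein-gated rectifiers Kcnj3 and Kcnj6 had -0.23 ± 0.27 and -0.40 ± 0.31. The M-current gene Kcnq3 had -0.51 ± 0.49, and the delayed rectifier Kcna1 had 0.03 ± 0.39. Kcnq3 ranged from 73.5 to 455 in ozone and from 88.6 to 436 in air libraries, and its groups overlapped almost completely. Kcnd2 was not analysed here. The 75 members not called had log2 fold changes from -1.63 (Kcnj13, adjusted p = 0.434) to 0.63 (Kcna5, adjusted p = 0.134). Neuron markers summed to 24837 to 37367 in ozone and 28271 to 36870 in air libraries, and smooth muscle markers ranged widely, from 1378 to 22818 and from 4866 to 16794.

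A few members lay near the minimum mean of 10. In adrenal, Kcnn4 (mean 12.3 over all libraries) and Kcnab3 (13.8) were just inside it, and Kcnip2 (9.94) and Kcnk1 (8.53) just outside. In hypothalamus Kcnk12 (10.7) and Kcng3 (19.7) were just inside, and Kcne4 (7.45) and Kcnmb1 (6.99) just outside.

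In lung, the tissue ozone meets first, 11 members rose and 9 fell of 51 tested. That is 39.2% of members against 17.7% of all 14828 genes (9.51% risen, 8.18% fallen), and 14 members had no overlap between groups, against 9.54% of all genes. The members' median was -0.21 and that of all genes 0.00. Of the voltage-gated subunits 5 rose and 5 fell of 19, of the two-pore-domain genes 3 rose of 7, of the auxiliary genes 2 rose and 1 fell of 9, and of the inward rectifiers 1 rose and 2 fell of 10. The largest rises were in an auxiliary pair and a silent subunit. Kcnmb4, the neuronal beta subunit of BK channels, had a lowest, median and highest value of 225, 255 and 345 in ozone lungs, against 33, 44.9 and 72.1 in air lungs (2.53 ± 0.19, limma adjusted p = 1.2e-06). Kcnip3 had 224, 251 and 300 in ozone lungs, against 51.2, 63.4 and 87.8 in air lungs (1.97 ± 0.13, limma adjusted p = 1.01e-06). For both genes every ozone lung lay above every air lung. Kcng4, a silent modifier of other voltage-gated channels, was low throughout, at 19.3 to 29.9 in ozone and 2.77 to 5.54 in air lungs (2.17 ± 0.24, adjusted p = 2.89e-05 in limma), and passed the minimum mean only through the ozone libraries.

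Kcnk1, the TWIK-1 leak channel, had 1665 to 2422 in ozone lungs and 896 to 1198 in air lungs (0.94 ± 0.11, adjusted p = 5.62e-05 in limma). Kcnh1 had 62.5 to 135 in ozone and 14.6 to 31.4 in air lungs (1.86 ± 0.25), Kcnh4, of the related ELK group, 41.1 to 63.5 and 20.1 to 32.4 (1.05 ± 0.17), and the Kir2.3 gene Kcnj4 188 to 270 and 72.9 to 187 (1.15 ± 0.18). The first 2 of these were well apart and the Kcnj4 groups only just. Kcnj5, which rose in adrenal, fell in lung. It had 22.5, 17.4, 29.8, 15.1, 25.2 and 14.7 in ozone lungs, against 134, 128, 61, 58.8, 36.1 and 90.4 in air lungs. No ozone lung reached an air lung, and the log2 fold change was -1.88 ± 0.30 (limma adjusted p = 0.000629).

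Air lungs 1 and 2 had the highest Kcnj5 values. They also had the highest cardiomyocyte marker sums, 2096 and 4047, against 10.1 to 652 in ozone lungs and 17.6 to 236 in the other air lungs. Kcnj5 is a channel of heart atria. Without these 2 libraries Kcnj5 was -1.50 (limma adjusted p = 0.00387), and 9 members rose and 6 fell, with 11.9% of all genes called. Among those no longer called then were Kcna2, Kcna6, Kcnk5 and Kcnq5. Cardiomyocyte markers had 0 of 3 called in lung. Neuron markers, low in lung, summed to 105 to 182 in ozone and 34.4 to 50.5 in air lungs, with 1 marker tested and risen, and lymphocyte markers to 191 to 390 and 350 to 1319, with 2 of 4 fallen. Macrophage markers summed to 2448 to 2913 and 3007 to 3477, with 2 of 3 fallen, and alveolar epithelium markers to 218576 to 305634 and 153824 to 240952, with 1 of 3 risen. Their part in the result was not tested.

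The other 12 members called in lung had higher adjusted p-values. Of these, 4 rose by 0.44 to 0.83 (Kcnq1, Kcnk2, Kcnq5, Kcnk5) and 8 fell, with log2 fold changes from -1.64 to -0.41 (among them Kcnj12, Kcnn3, Kcnh6, Kcns3, Kcnrg, Kcna6 and Kcna2). Kcnj12, with the -1.64, and Kcna6 passed the minimum mean only through the air libraries. Kcnk5 lost its call with any library but ozone 15 left out, with a minimum mean of 1 and under total-read scaling. Kcna2 lost it without air library 1 or 8 or ozone library 13, 15 or 20, and Kcnq5 without air 1 or ozone 14 or 16 or with array weights. Their highest adjusted p-values in limma with a library left out were 0.107 for Kcnk5, 0.0644 for Kcna2 and 0.0565 for Kcnq5. Among lung textbook members, Kcnq1, the basolateral channel of airway epithelium, and Kcnk2 of alveolar epithelium rose by 0.55 ± 0.11 and 0.83 ± 0.17, beside alveolar epithelium marker sums that reached higher in ozone lungs and overlapped those in air lungs. Kcna5, a channel of pulmonary artery smooth muscle, had -1.02 ± 0.40 (adjusted p = 0.0907), and was called without air library 7 (adjusted p = 0.0194) and by DESeq2 (0.0368). Kcnn4 and Kcnma1 had -0.43 ± 0.21 and -0.58 ± 0.43 and were not called.

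In liver few members had reads to test, and 2 of 14 rose and 1 fell (21.4%, against 11.5% of all 12573 genes, 6.74% risen and 4.72% fallen). All 3 had no overlap between groups, which held for 7.62% of all genes. The members' median was 0.16 and that of all genes 0.00. Kcnn2, the SK2 channel that opens with hepatocyte calcium, had 15.7, 24, 14.8, 34.4, 23.4 and 28.9 in ozone livers and 3.15, 8.42, 7.24, 5.25, 4.57 and 3.77 in air livers (1.94 ± 0.30, limma adjusted p = 0.00061). It passed the minimum mean only through the ozone libraries. Kcnh1 had 33.3, 37.5, 41.4, 26.8, 27.8 and 48.1 in ozone livers and 4.21, 7.48, 10.3, 15.8, 8.22 and 16 in air livers (1.78 ± 0.30, limma adjusted p = 0.00118). Kcnj8 had 16.6, 12.5, 6.36, 8.92, 25.2 and 9.62 in ozone livers and 34.7, 42.1, 25.8, 61.3, 35.6 and 40.5 in air livers (-1.61 ± 0.30, limma adjusted p = 0.00297). The lowest air liver for Kcnj8 was just above the highest ozone liver. Beside it, smooth muscle markers summed to 396 to 2219 in ozone and 558 to 2423 in air livers and endothelial markers to 1144 to 2360 and 1284 to 3184, none of them called, and their part in the result was not tested. Kcnk5 (0.40 ± 0.18) and Kcnk1 (0.06 ± 0.77) did not pass, and Kcnq1 was below the minimum.

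In adipose tissue 1 of 41 members rose and 1 fell (4.88%, against 7.32% of all 14252 genes, 3.87% risen and 3.45% fallen), and 3 members had no overlap between groups, against 8.81% of all genes. Their median was -0.15, and that of all genes 0.01. Total-read scaling, which moved the median of all adipose genes to -0.13, gave none risen and 5 fallen, against 2.5% and 6.62% of all genes. Kcnj8 had 310, 227, 316, 275 and 277 in ozone and 477, 511, 474, 624 and 366 in air libraries, with no overlap (-0.79 ± 0.16, limma adjusted p = 0.0104). Smooth muscle markers, summing to 8645 to 38087 in ozone and 8323 to 18285 in air libraries with none called, and endothelial markers, summing to 11455 to 15194 and 9449 to 12811 with 1 of 3 risen, are given beside it, and their part in the result was not tested. Kcnd3, the Kv4.3 channel, had 616, 648, 911, 468 and 717 after ozone and 569, 335, 418, 369 and 363 in air. The groups overlapped, the log2 fold change was 0.70 ± 0.19 (limma adjusted p = 0.0442), and the call held only without air library 2 or ozone library 22, among the 10 fits with 1 library left out. It was lost under total-read scaling (0.56, adjusted p = 0.0774). Kcnk3, the TASK-1 channel of adipocytes, had -0.31 ± 0.17 and Kcnn4 -0.52 ± 0.40, neither called, and Kcna3 and Kcnk2 were below the minimum.

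In muscle 11 members rose and 12 fell of 35 tested, 65.7% against 43.7% of all 13043 genes (21.6% risen, 22.1% fallen). No overlap between groups was seen for 12 members, against 24.3% of all genes. The median was -0.19 over members and 0.02 over all genes. Total-read scaling, which moved the median of all muscle genes to -0.30, gave 9 risen and 15 fallen, against 8.58% and 38.2% of all genes. Of the inward rectifiers 2 rose and 3 fell of 6, of the two-pore-domain genes 3 fell of 4, of the voltage-gated genes 6 rose and 5 fell of 14 and of the calcium- or sodium-activated genes 2 rose and 1 fell of 7.

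Muscle fibre markers differed between the groups beside these genes. Slow-fibre markers summed to 5439 to 243982 in ozone and 104770 to 712545 in air libraries, with all 3 of 3 fallen, and fast-fibre markers, 2 of 4 measured here, to 319107 to 572983 and 86334 to 254525, with both risen. Schwann cell markers summed to 156 to 533 and 952 to 2067, with 2 of 3 tested fallen. Smooth muscle markers summed to 3076 to 3443 and 4251 to 7739, with 4 of 5 fallen. With the slow-fibre sum as a covariate, 6 members rose and 3 fell, and 17.1% of all genes were called. The sums of ozone libraries 13, 15, 16 and 24, at 5439 to 68422, lay below those of all air libraries. Slow-fibre content and ozone therefore cannot be told apart here. A call lost with the covariate does not show that fibre type accounts for it. The part of the other cell types was not tested either.

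Both Kcnj12 and Kcnj11, inward rectifiers of the muscle fibre membrane, rose. Kcnj12, the Kir2.2 pore, had 1140, 1089, 943, 938 and 1129 in ozone muscles, against 501, 242, 303, 280, 278 and 282 in air muscles (1.77 ± 0.16, limma adjusted p = 8.12e-06). Kcnj11, the Kir6.2 pore of the muscle ATP-sensitive channel, had 2576, 2234, 2812, 2445 and 2424 in ozone muscles, against 1438, 1143, 1105, 906, 1230 and 1242 in air muscles (1.09 ± 0.12, limma adjusted p = 3.47e-05). For both genes all ozone libraries were above all air libraries. The slow-fibre sum of ozone library 23, 243982, lay inside the air range, but the fast-fibre sums of all ozone libraries lay above those of all air libraries. This library was thus not matched to air in fibre markers, and the part of fibre type was not tested. With the slow-fibre covariate their log2 fold changes were 1.86 (adjusted p = 0.000994) and 1.07 (adjusted p = 0.00391) in limma. A near-identical copy of Kcnj12 is known in humans, and how the authors' counting treated such copies is not given in the sources used here. Kcnj2, the other Kir2 gene of muscle, had 0.04 ± 0.26 and was not called.

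Kcnip3 had 113, 56.6, 63.7, 81.6 and 122 in ozone muscles, against 10.6, 5.05, 6.55, 1.89, 7.39 and 11.2 in air muscles. It had 404 reads over the ozone and 47 over the air libraries, and rose by 3.52 ± 0.36 on the log2 scale (limma adjusted p = 1.6e-05), and by 3.32 with the slow-fibre covariate. It passed the minimum mean only through the ozone libraries. Kcnh2 (1.24 ± 0.25) and the Kv3.4 gene Kcnc4 (0.70 ± 0.12), whose channel is abundant in fast fibres, also rose. With the covariate they were 0.67 (adjusted p = 0.144) and 0.51 (adjusted p = 0.0515) in limma, no longer called.

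Kcnk2, the TREK-1 leak channel, was 7.82 to 33.1 in ozone and 38.3 to 172 in air muscles (-2.43 ± 0.45, limma adjusted p = 0.00104), and -1.08 with the covariate (adjusted p = 0.0868). Kcnt2, the sodium-activated Slick channel, was 8.94 to 20.5 and 37.4 to 71.7 (-1.71 ± 0.26, limma adjusted p = 0.000284), and -1.93 with the covariate (adjusted p = 0.00692). Both sets of libraries were apart. A further 15 called members comprised 5 that rose by 0.39 to 1.15, among them Kcna7, the Kv1.7 channel (0.39 ± 0.10, and 0.06 under total-read scaling), and 10 that fell, with log2 fold changes from -2.93 (Kcnj13) to -0.37 (Kcnq5). Kcnj13, Kcna1 and Kcns3 passed the minimum mean only through the air libraries, and Kcnj13 had 7 reads over the ozone and 132 over the air libraries. With 1 library left out in turn, Kcnd1 kept the call only without air library 3 or ozone library 15, Kcnn1 only without air 2 or ozone 13 or 15, and Kcnq5 only without air 9. Kcnd1 and Kcnq5 also lost it with a minimum mean of 1, Kcnq5 under TMM scaling, and Kcnn1 under total-read scaling and in edgeR. Kcnj14 lost it without ozone library 13 or 16, and was -0.46 (adjusted p = 0.451) with the slow-fibre covariate. Kcnn3 had -0.01 ± 0.18.

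**Figure D2:**
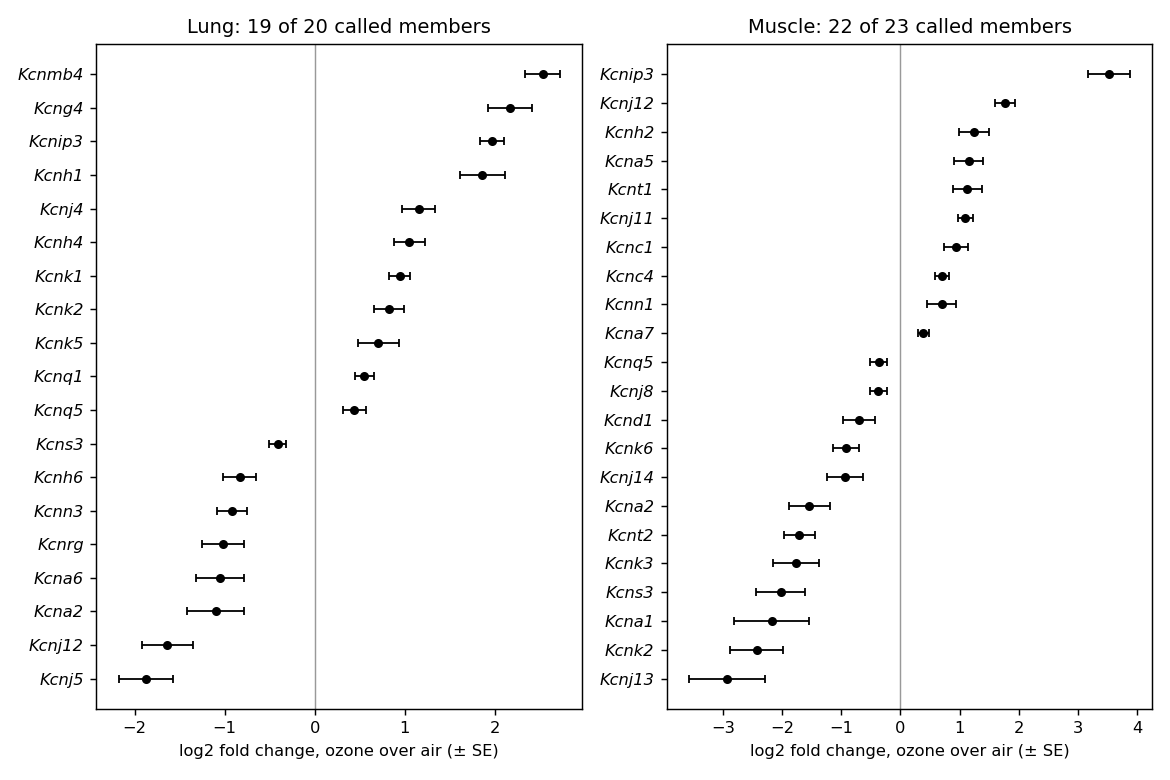
Log2 fold changes of deposited value + 1, ozone over air, with standard errors as bars, for 19 of the 20 potassium channel genes called in lung (left, 6 ozone and 6 air libraries) and 22 of the 23 called in muscle (right, 5 ozone and 6 air libraries). Lung values run from -1.88 (Kcnj5) to 2.53 (Kcnmb4) and muscle values from -2.93 (Kcnj13) to 3.52 (Kcnip3).

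**Figure D3:**
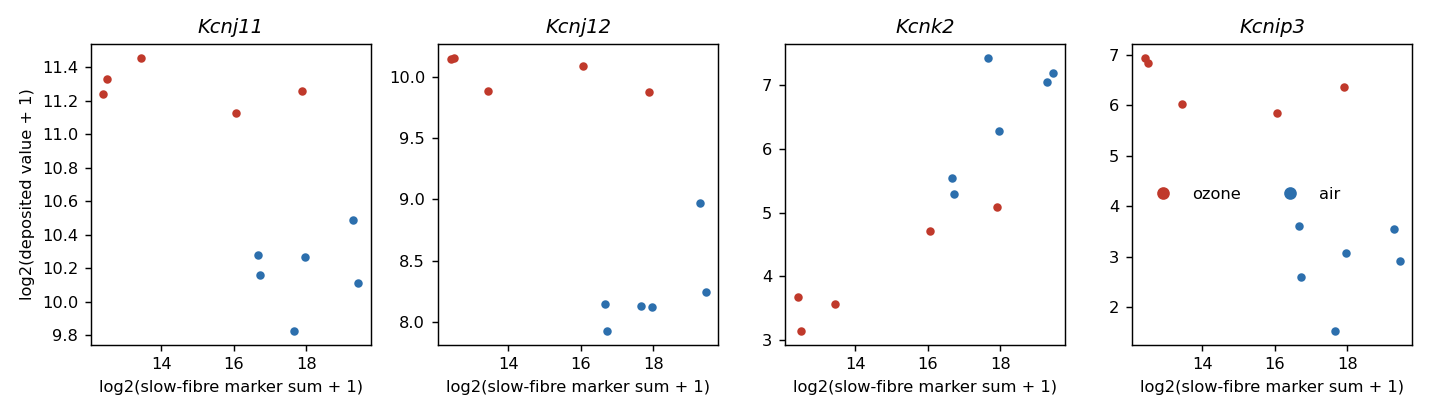
Log2(value + 1) of Kcnj11, Kcnj12, Kcnk2 and Kcnip3 (vertical axis) against log2 of the summed slow-fibre markers + 1 (horizontal axis) in 5 ozone and 6 air muscle libraries, 1 point per library. Kcnj11, Kcnj12 and Kcnip3 are higher in the 5 ozone libraries, of which 1 lies within the air range of the slow-fibre sum and 4 below it, and Kcnk2 is lower in them, with its highest ozone value of 33.1 in the library with the highest ozone slow-fibre sum. The fast-fibre sums of all 5 ozone libraries, not drawn, lie above the air range.

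Across tissues, 44 of the 85 tested members were called in at least 1 tissue, 32 of them in 1 tissue, 9 in 2 and 3 in 3 or more. Those called in 3 or more were Kcnip3, Kcnh1 and Kcnj8. The 60 calls, 33 rises and 27 falls, came from 263 tests of a member in a tissue. Of all genes, 18.6% were called in adrenal, 1.41% in hypothalamus and 17.7% in lung. The shares in liver, adipose tissue and muscle were 11.5%, 7.32% and 43.7%. How many of all genes were called in 1, 2 or more tissues was not counted, so no recurrence particular to these members is claimed.

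**Figure D4:**
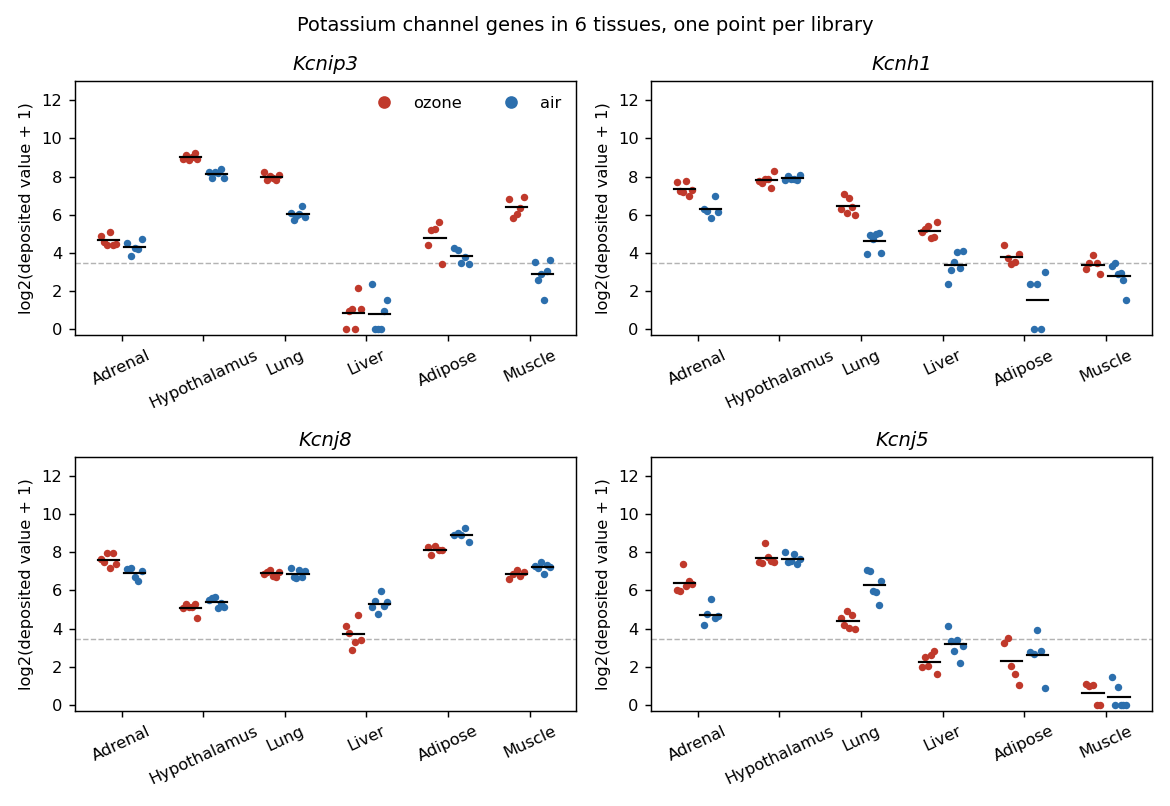
Deposited values of Kcnip3, Kcnh1, Kcnj8 and Kcnj5 as log2(value + 1) in 6 tissues, 1 point per library with the group mean as a bar and the minimum mean of 10 dashed. Ozone libraries of Kcnip3 lie above air libraries in hypothalamus, lung and muscle, those of Kcnh1 in adrenal, lung and liver, and Kcnj5 differs in opposite directions in adrenal and lung; levels are not comparable between tissues.

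Kcnip3 rose in hypothalamus, lung and muscle, with log2 fold changes of 0.87, 1.97 and 3.52. In adrenal and adipose tissue it had 0.35 ± 0.22 (adjusted p = 0.306) and 0.96 ± 0.41 (adjusted p = 0.195), and in liver it was below the minimum. Its ozone effect in hypothalamus was smaller than in lung by 1.09 ± 0.17 and smaller than in muscle by 2.65 ± 0.37 (limma adjusted p = 0.00023 and 3.55e-05), in pairs of tissues for which 3.74% and 18.5% of all genes differed. Kcnh1 rose in adrenal, lung and liver by 1.07, 1.86 and 1.78. In hypothalamus, where it averaged 229 ± 48.6 after ozone and 240 ± 18.6 in air (n = 6 each), it had -0.09 ± 0.13, and the effect there was below that in adrenal by 1.16 ± 0.25 (limma adjusted p = 0.00323). The difference between adrenal and lung, -0.79 ± 0.34, did not pass (adjusted p = 0.138). Of all genes, 10.6% had effects that differed between adrenal and hypothalamus by the same test. In adipose tissue and muscle Kcnh1 was below the minimum, at 13.4 ± 4.33 after ozone (n = 5) and 3.06 ± 3.03 in air (n = 5), and at 9.66 ± 2.89 (n = 5) and 6.48 ± 2.91 (n = 6).

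The promoters of these 2 recurrent genes are shown since each rose in 3 tissues. The Kcnh1 window (GRCr8, chr13:106252966-106253265, plus strand) holds the letters AAAGGTCA, the element that NR4A nuclear receptors bind, on the opposite strand at -245, in capitals. The Kcnip3 window (GRCr8, chr3:135195361-135195660, minus strand) held none of the motifs searched. Both are from RefSeq.
Kcnh1: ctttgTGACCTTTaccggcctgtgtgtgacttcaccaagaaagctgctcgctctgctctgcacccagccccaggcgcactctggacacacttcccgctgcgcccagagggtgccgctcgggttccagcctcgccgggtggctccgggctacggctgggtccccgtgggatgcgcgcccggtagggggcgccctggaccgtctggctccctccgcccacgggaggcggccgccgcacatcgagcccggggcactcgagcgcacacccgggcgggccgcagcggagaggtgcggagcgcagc
Kcnip3: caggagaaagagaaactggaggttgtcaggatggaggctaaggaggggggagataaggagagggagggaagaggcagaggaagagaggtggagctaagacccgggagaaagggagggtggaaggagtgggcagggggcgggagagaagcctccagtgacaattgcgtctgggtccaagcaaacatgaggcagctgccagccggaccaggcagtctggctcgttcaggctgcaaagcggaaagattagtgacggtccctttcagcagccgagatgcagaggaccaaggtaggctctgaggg
AAAGGTCA was found in 3 (5.08%) of the 59 member promoters and 1.29% of all 27457. The palindrome bound by the glucocorticoid receptor was in 0 of 59 and 0.00728% of all, and the cAMP element TGACGTCA in 0 of 59 and 1.91%. The E-box CACGTG was in 5.08% and 6.65%, and the antioxidant element core TGACNNNGC in 13.6% and 12.2%. Both strands were searched, motifs may overlap, and a match says only that the letters are present.

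Kcnj8 rose in adrenal and fell in liver, adipose tissue and muscle. Muscle values were 96.1, 115, 134, 106 and 124 after ozone and 154, 141, 179, 116, 162 and 147 in air. The muscle call was at the edge (-0.38 ± 0.15, limma adjusted p = 0.0496), was lost with any of air libraries 2, 3, 4, 9 and 11 or ozone libraries 13, 15, 23 and 24 left out, with a minimum mean of 1 or under TMM scaling, and was -0.34 (adjusted p = 0.295) with the slow-fibre covariate. In lung Kcnj8 had 0.01 ± 0.13 and in hypothalamus -0.31 ± 0.18. The adrenal effect exceeded that in liver by 2.31 ± 0.37, that in adipose tissue by 1.49 ± 0.25 and that in muscle by 1.08 ± 0.23 (limma adjusted p = 0.000143, 0.000449 and 0.00141). The share of all genes whose effect differed in these pairs was 10.3%, 7.81% and 29.4%.

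**Figure D5:**
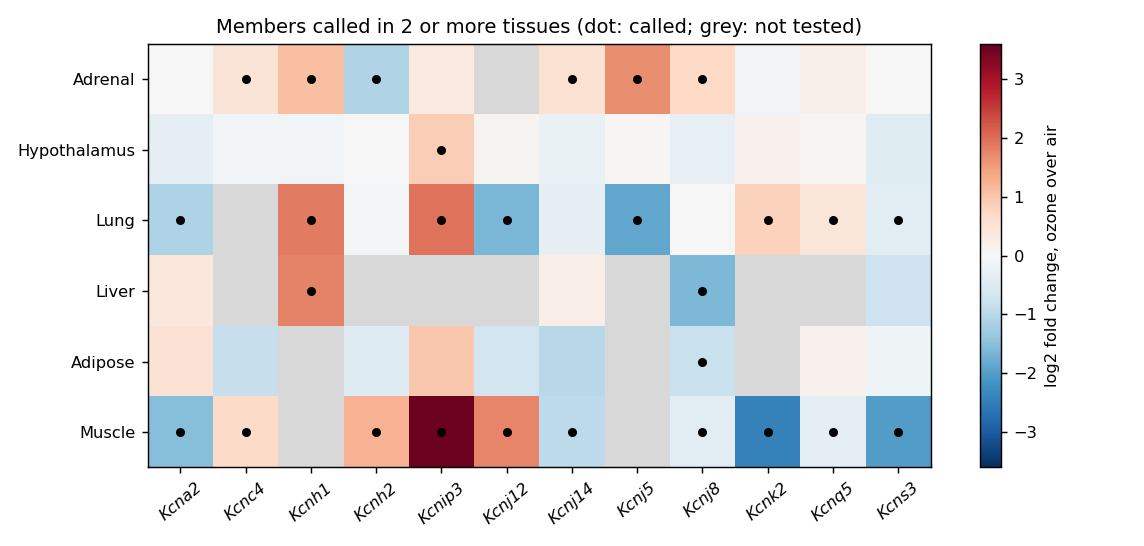
Log2 fold changes, ozone over air, of the 12 potassium channel genes called in 2 or more tissues; rows are tissues, columns genes, a dot marks a call and grey a gene not tested. Kcnip3 reaches 3.52 in muscle, and Kcnj5, Kcnj8, Kcnh2, Kcnj12, Kcnj14, Kcnk2 and Kcnq5 carry calls of both directions.

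In all, 7 members rose in 1 tissue and fell in another, in 9 pairs of tissues, and each such pair was tested for the difference itself. How many of all genes had calls of both directions was not counted. Kcnj5 differed by 3.56 ± 0.44 between adrenal and lung (limma adjusted p = 5.2e-06), a pair for which 13.4% of all genes differed. Kcnh2 differed by -2.33 ± 0.35 and Kcnj14 by 1.49 ± 0.31 between adrenal and muscle (adjusted p = 3.69e-05 and 0.00106, limma), without the slow-fibre covariate, under which neither was called in muscle. Between lung and muscle Kcnj12 differed by -3.41 ± 0.30, Kcnk2 by 3.26 ± 0.49 and Kcnq5 by 0.81 ± 0.19 (adjusted p = 4.11e-08, 4.19e-05 and 0.00283, limma), where 28.6% of all genes differed. Of these 3, Kcnk2 and Kcnq5 were not called in muscle with the slow-fibre covariate. These pairs were chosen for opposite calls, so their differences describe the calls further and are no separate support. Over all 6 tissues, a limma F test gave an ozone effect that differed between tissues for all 8 members tested in every tissue (Kcna2, Kcnj14, Kcnj8, Kcnk3, Kcnk5, Kcnk6, Kcnn1 and Kcns3), against 41.9% of the 11111 genes so tested. That test did not include the slow-fibre covariate, with which Kcna2, Kcnj14, Kcnj8, Kcnk6 and Kcnn1 were not called in muscle.

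Genes that work with potassium channels changed in part, by a list that was likewise chosen with earlier results known. In adrenal Abcc8, the sulfonylurea receptor that pairs with Kir6 pores, rose by 0.87 ± 0.18 (limma adjusted p = 0.00502), 1 of 7 channel partners tested there, where 18.6% of all genes were called. Also in adrenal 2 of 10 sodium channel genes rose, among them Scn8a (0.85 ± 0.19), 2 of 5 potassium-chloride cotransporter genes fell, among them Slc12a7 (-0.46 ± 0.10), and none of 9 sodium pump genes passed. Abcc8 had 60.6 to 91.1 in ozone adrenals and 28.7 to 46.5 in air adrenals, without overlap. In hypothalamus the pacemaker channel gene Hcn4 fell by 0.49 on the log2 scale (limma adjusted p = 0.0496), the one gene of the 5 partner lists to pass there.

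The sodium pump restores the potassium that channels let out. In lung 2 of 12 pump genes tested rose and none fell, a share like the 17.7% of all genes called there, and among them was the beta subunit gene Atp1b1 (1.53 ± 0.18). In liver Atp1b1 rose by 2.58 ± 0.17 (limma adjusted p = 2.99e-07), at 8003 to 9756 in ozone and 982 to 1988 in air livers, and the calcium channel subunit Cacnb4 rose by 1.64 ± 0.44. In muscle 1 of 9 pump genes rose and 3 fell, where 43.7% of all genes were called. Slc12a7, the KCC4 cotransporter, fell also in lung, liver, adipose tissue and muscle, with -0.40 ± 0.09 (lung, named after its value was seen), -0.57 ± 0.10, -0.87 ± 0.12 and -1.11 ± 0.17, and it had -0.34 ± 0.19 in hypothalamus, not called. In muscle Slc12a4, the KCC1 cotransporter, had -1.05 ± 0.16 and Abcc8 rose by 1.56 ± 0.21. Amigo1, a partner of voltage-gated pores, fell in lung and adipose tissue, with -0.46 ± 0.08 and -0.83 ± 0.12. Of voltage-gated calcium channel genes 7 rose and 3 fell of 16 in muscle, and 1 rose and 1 fell of 15 in adrenal, tissues in which 43.7% and 18.6% of all genes were called.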

How the data were processed

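Messenger RNA sequencing of 6 tissues of male WKY rats gave 70 labelled libraries, of which 68 had a column, with adrenal air library 7 and muscle ozone library 17 not analysed here. The authors deposited 1 table per tissue of normalised read values (signal), made with Partek and DESeq2 on the rat build rn6 as far as the submitters' processing notes name tools and builds. Aligner, counting tool, annotation and strand setting: not given in the sources used here. Rows naming a date instead of a gene (24 per table) were left out.

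In every library 100% of the deposited signal values were whole multiples, within 0.01, of the value of 1 read, so read counts were recovered from the authors' values. These served for depth, for edgeR (4.0.16) and for DESeq2 (1.42.0). Main results used limma (3.58.1, R 4.3.3) on log2(value + 1) per tissue, for genes with a mean of at least 10, with Benjamini-Hochberg adjustment over all genes tested and a threshold of 0.05. Differences between tissues used limma's tissue-by-exposure terms. The script was tested on simulated counts.

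Named genes were all called members in adrenal and hypothalamus, up to 8 with the lowest adjusted p in each other tissue, members called in 3 or more tissues, textbook members of each tissue, up to 3 called partner genes per tissue, and members next to the minimum. Single results for some members and 1 partner gene are not reported here, while the fits and counts of members include them. Members and lists were chosen with earlier results of these data known. Samples were grouped by their labels. No library was a copy of another: chi-square per degree of freedom between libraries of a group was at least 8.76. Air libraries carry lower numbers than ozone libraries in every tissue, so if the numbers follow an order of handling, that order and ozone cannot be told apart. Alternatives were pseudocounts of 0.5 and 5, minimum means of 1 and 50, TMM and total-read scaling, array weights, edgeR, DESeq2 and leaving out each library. Chosen after seeing the data were fits without adrenal air 8 and ozone 16, without lung air 1 and 2, with a slow-fibre covariate in muscle, and between pairs of tissues. Promoters came from RefSeq (GRCr8), with 59 of 90 members matched, and the files' own build, rn6, was not mixed with it.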

Additional observations from a re-analysis of the deposited data

Results flagged for a closer look

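Among 162 groups of 5 or 6 libraries examined for a library far from the others, 19 values stood apart. The rule flags about 1 in 20 groups where values are normally distributed and groups independent. These values were not on a log scale and the groups shared libraries, so that rate is no measure of chance here. In adrenal, ozone library 15 was high for Kcnj14 (229) and ozone library 16 for Kcnj5 (169), Kcnk3 (18609) and Kcnma1 (279). Air library 8 was high for Kcnk2 (446), Kcnk3 (28628) and Kcnma1 (246), and air library 9 for Kcnk9 (1163). In lung, air library 1 was high for Kcnk2 (352), air library 2 for Kcna2 (492) and Kcnma1 (82.4), and air library 8 low for Kcnj12 (14.2). In liver, ozone library 19 was high for Kcnq1 (38.2) and air library 1 for Kcnk1 (55.7). In muscle, ozone library 23 was high for Kcna2 (47.4) and ozone library 16 for Kcnn1 (48.6). Air library 7 was high for Kcna2 (160.3), and air library 2 for Kcnj12 (501) and Kcnn1 (36.4). All these are deposited values.

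The ozone effect differed between the 6 tissues for all 8 members tested in each of them, by limma's F test over all genes. The slow-fibre covariate of muscle was not in that test. The adjusted p-values were 8.71e-09 for Kcnj8, 0.000127 for Kcnj14, 0.00218 for Kcnk5, 0.00264 for Kcns3, 0.00305 for Kcnk3, 0.00353 for Kcna2, 0.00755 for Kcnk6 and 0.0281 for Kcnn1. Of all genes, 41.9% passed that test.

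The effect differed in each of the 9 pairs of tissues in which a member was called in opposite directions. The pairs were chosen for those calls, so the differences are no separate support. As adrenal minus the other tissue, the log2 differences were 3.56 for Kcnj5 against lung, 2.31 for Kcnj8 against liver, 1.49 for Kcnj8 against adipose tissue, 1.08 for Kcnj8 against muscle, -2.33 for Kcnh2 against muscle and 1.49 for Kcnj14 against muscle. As lung minus muscle they were -3.41 for Kcnj12, 3.26 for Kcnk2 and 0.81 for Kcnq5. These tests did not include the slow-fibre covariate, with which Kcnh2, Kcnj14, Kcnj8, Kcnk2 and Kcnq5 were not called in muscle.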

How the results depend on the processing

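Over the alternatives that left no single library out, 675 of 730 results for single members kept direction and side of the threshold, 36 lost the call, 3 gained it and 16 changed sign. Array weights gave 12 risen and 7 fallen members in adrenal, 2 and 1 in hypothalamus, and 2 and 3 in adipose tissue, where it called 34.4%, 4.75% and 10.5% of all genes. DESeq2 gave 2 and 1 in hypothalamus and 3 and 2 in adipose tissue, with 3.62% and 11.3% of all genes called. Total-read scaling gave 1 fallen in hypothalamus, and 0 risen and 5 fallen in adipose tissue, where a pseudocount of 5 and edgeR gave 2 risen and a minimum mean of 1 gave 3. A minimum mean of 50, which tests fewer genes, gave 0 and 0 in liver and 7 and 5 in muscle, with 13.5% and 45.7% of all genes called. Kcnn2, Kcnh1 and Kcnj8, called in liver in the main fit, had means under 50 there and were not tested. Kcnk6 was the only member that reached this minimum in every tissue, and its ozone effect still differed between tissues (limma F test, adjusted p = 0.00697). The slow-fibre covariate gave 6 and 3 in muscle. Apart from those changes of construction, the cause was not tested.

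With each library left out in turn, adrenal gave 6 to 11 risen (11 without air 8) and 3 to 6 fallen, hypothalamus 1 to 1 and 0 to 1 (1 without air 1 or ozone 15), lung 9 to 11 and 8 to 10, liver 2 to 2 and 1 to 1, adipose tissue 0 to 1 (0 without air 5, 6, 9 or 12 or ozone 16 or 23) and 1 to 4, and muscle 10 to 12 and 8 to 11.

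Changes of sign were seen only for members not called. In adrenal, Kcnk2 was 0.10 with array weights, 0.089 without air 8 and ozone 16 and -0.25 to 0.21 with a library left out. Kcnma1 was 0.15 with array weights, 0.018 in edgeR, 0.026 in DESeq2, 0.012 without both libraries and -0.23 to 0.24 with a library left out. In hypothalamus, Kcna1 was -0.037 in edgeR, -0.046 in DESeq2 and -0.19 to 0.24. Kcnj11 was 0.043 with array weights and -0.088 to 0.070. In liver Kcnk1 was -0.034 in edgeR, -0.037 in DESeq2 and -0.33 to 0.55. In muscle Kcnj2 was -0.28 under total-read scaling, -0.010 in edgeR, -0.0065 in DESeq2 and -0.11 to 0.19, and Kcnn3 6.0e-05 under TMM scaling, 0.011 with the covariate and -0.15 to 0.046.

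No paired analysis was possible within a tissue because ozone and air libraries share no number. Across tissues, libraries of the same number had a median correlation of 0.027 over 90 pairs, against 0.006 over 872 other pairs. Such low correlations cannot show whether a number marks the same rat across tissues. The main fits and those between pairs of tissues took the libraries as unpaired. With the replicate block all 8 members still differed between tissues. Low values limit liver most, where 14 members could be tested.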
